A study of Mus musculus with 4 samples.

Results

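The mitochondrial chromosome of the mouse carries 37 genes, and all 37 had a row among the 47885 rows of the count table. They were taken as the rows whose identifier maps to a symbol beginning with mt- in the GENCODE M21 annotation of the build mm10. The set holds 13 protein genes, 2 ribosomal RNA genes and 22 transfer RNA genes. Counts were present for 15 of the 37, and the other 22 stood at 0 in every library.

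Each of the 4 libraries was made from 1 mouse embryo (C57BL/6 strain background, embryonic day 5.5), at the egg cylinder stage shortly after implantation. The study asked what loss of Mettl14, the partner of Mettl3 in the enzyme that writes N6-methyladenosine on messenger RNA, does to the embryo when mutants still look normal. The control group (WT, 2 embryos) is labelled Mettl14+/+ and the mutant group (KO, 2 embryos) Mettl14-/-. Per the labels' protocols the embryos were sequenced first, then qPCR of Mettl14 in leftover cDNA gave their genotype, and those that expressed it became the controls. A heterozygous embryo would also express it. No source used here gives the deleted stretch of the gene.

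Mitochondria keep a small circular genome that encodes core subunits of the respiratory chain and of ATP synthase, together with the ribosomal and transfer RNAs needed to translate them. Both strands are transcribed as long precursors, which are cut largely at the transfer RNAs that lie between the other genes. Most of the messenger RNAs then receive a short poly(A) tail, so that they are captured by methods that prime on poly(A), as the Smart-Seq method used here does. In the mouse, replication of mitochondrial DNA is largely paused during cleavage and resumes around implantation.

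Total counts ran from 16108062 to 28698541 per library, and 1 count was worth between 0.0358 and 0.0589 CPM (counts scaled to the TMM-adjusted library size). Levels are given in CPM except where counts are named, and those counts are not scaled to the library totals. Mettl14 stood at 33.9 CPM in WT replicate 1, 31.6 in WT replicate 2, 4.62 in KO replicate 1 and 8.03 in KO replicate 2, with a log2 fold change of -2.37 (SE 0.45). Its adjusted p was 0.274 by edgeR and 0.000418 by DESeq2 (0.000418 to 0.361 over 14 alternatives), and the groups had been assigned from its RNA. The summed level of 12 epiblast markers lay between 2605 and 4756 CPM in the 4 embryos, and that of 12 extraembryonic ectoderm markers between 1862 and 2787 CPM. Visceral endoderm markers (16 genes) summed to 885 and 2418 CPM in WT and to 336 and 447 CPM in KO. Both KO embryos lay below both WT embryos for 12 of the 15 tested, beside 18.8% of all genes tested. DESeq2 called 8 of them lower, beside 0.578%. Ectoplacental cone and giant cell markers (10 genes, of which Prl2c2, Prl3b1 and Tpbpa were at 0) summed to 520 and 884 CPM in WT and to 2172 and 1345 CPM in KO. Both KO embryos lay above both WT embryos for 6 of the 7 tested, beside 19.4% of all genes tested, and DESeq2 called 3 higher, beside 0.964%. Maternal decidua markers (12 genes, Hoxa11 at 0) summed to 35.3 and 48.7 CPM in WT and to 17.3 and 33.8 CPM in KO, with both KO embryos below both WT embryos for 6 of the 8 tested, beside 18.8% of all genes tested, and 2 called lower by DESeq2, beside 0.578%. Blood and immune markers (12 genes, 4 beta-like haemoglobin genes at 0) summed to at most 5.71 CPM. The labelled tissue thus had its defining markers in each library.

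Mitochondrially encoded genes took overlapping parts of the KO and WT libraries, and the gap between embryos of a group exceeded the gap between groups. With 2 embryos per group, overlap does not show that the parts are equal. Their share of all counts was 1.42% in WT replicate 1, 0.889% in WT replicate 2, 1.47% in KO replicate 1 and 1.06% in KO replicate 2, and paired values below keep this order. Replicate 1 was the higher embryo in each group, and the groups overlapped. The means were 1.15% ± 0.373 in WT and 1.27% ± 0.293 in KO (SD, n = 2), a difference of 0.113 percentage points. An exact two-sided permutation test gave p = 0.667, and with 2 embryos against 2 it cannot fall below 0.333. Without WT replicate 2 the difference was -0.150 and without KO replicate 1 it was -0.0941, so the direction rested on these embryos. In whole embryos, a different number of cells rich in mitochondrial RNA and a different amount of it per cell cannot be told apart. The visceral endoderm sum was highest in WT replicate 2, the library with the lowest mitochondrial share. The visceral endoderm, ectoplacental cone and decidua sums did not overlap between the groups. Their part in the share was not tested.

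**Figure D1:**
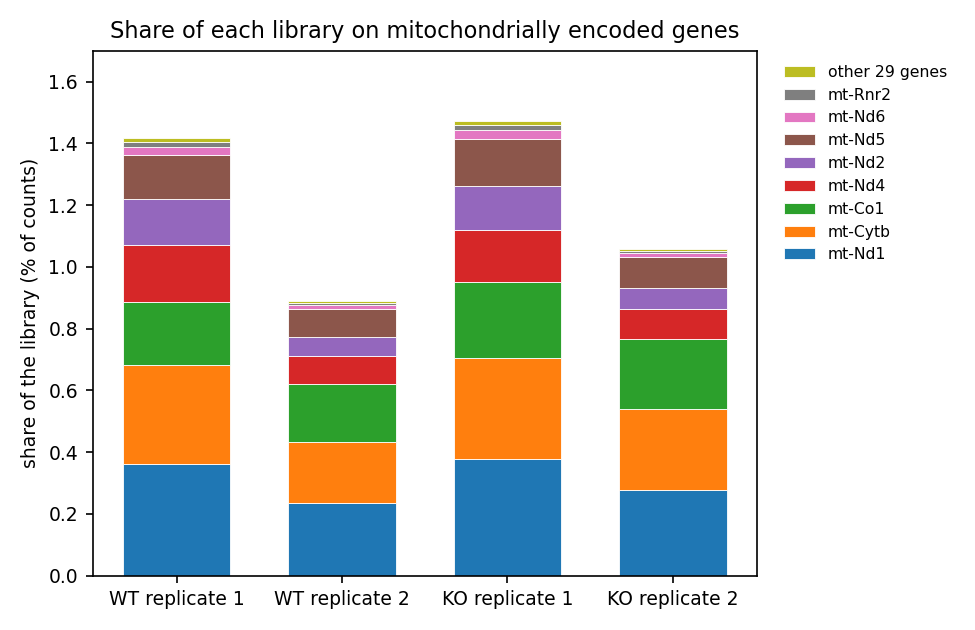
Stacked bars give the share of each library's counts (%) on mitochondrially encoded genes, 1 bar per embryo, with colours for the leading genes and the rest pooled. The bars reach 1.42% and 0.889% in WT and 1.47% and 1.06% in KO, with mt-Nd1, mt-Cytb and mt-Co1 at the base of each.

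The protein genes held nearly all of these counts, between 98.5% and 99.1% of them per embryo. The ribosomal RNAs held 1.49% and 0.850% in WT and 1.50% and 0.955% in KO, again higher in replicate 1 of each group (exact two-sided permutation p = 0.667 for KO against WT, n = 2 per group). The single transfer RNA row with counts held 0.0289% and 0.0246% in WT and 0.0369% and 0.0313% in KO. Both KO values lay above both WT values there, at the smallest p that the exact permutation test can give (0.333), on 44 to 110 counts per library. Genes of complex I held 61.0% and 55.3% in WT and 59.1% and 52.6% in KO. The complex III gene mt-Cytb held 22.7%, 22.5%, 22.1% and 24.8% in the same order, and complex IV genes held 14.5%, 21.1%, 17.0% and 21.5%. The ATP synthase genes held at most 0.216%. None of these shares of the 4 complexes separated the groups. mt-Co1 alone held 14.3%, 20.9%, 16.7% and 21.3%, nearly all of the complex IV share. Both ATP synthase genes, mt-Co2, mt-Co3, mt-Nd3 and mt-Nd4l lie wholly in a stretch, described next, where counts are uncertain. mt-Co1 and mt-Nd4 lie partly in it. The shares therefore describe the counts as given and do not rank the complexes by their RNA.

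Counts were very uneven along the chromosome, and the protein genes with low counts lay in a stretch that has a near-identical copy in the nuclear genome. Such copies arise when fragments of mitochondrial DNA insert into a nuclear chromosome. On chromosome 1, 7 annotated unprocessed pseudogenes on the minus strand (chr1:24611535-24616197, mm10) line up in order with mitochondrial bases 6390 to 11042. The match runs from inside mt-Co1 to inside mt-Nd4, so that 6 protein genes and 5 transfer RNA genes lie wholly within it, and mt-Co1 and mt-Nd4 lie partly within it. The aligned parts were identical for mt-Co2 (copy Gm28661, 681 bases), mt-Atp6 (Gm10925, 678 bases), mt-Co3 (Gm28437, 783 bases), mt-Nd4l (Gm10222, 294 bases) and mt-Nd4 (Gm28439, 876 bases). No annotated copy gene matches mt-Atp8 as a whole. Its last 43 bases, shared with mt-Atp6, lie within the match of Gm10925, and the rest lies between the matches of Gm28661 and Gm10925, which are equally far apart on both chromosomes.

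Only 2 substitutions were found over the 7 aligned pairs, and the start of mt-Co3 stands for the stretches that have none. The capitals mark the substituted base in the first 4 lines (T3C in mt-Nd3 and A1066T in mt-Co1, with the mitochondrial base first and positions counted from 1 at the 5′ end of the gene) and the start codon in the last 2. The mitochondrial lines are on the plus strand at chrM:9459-9491, chrM:6390-6423 and chrM:8607-8666, and the copies on the minus strand of chromosome 1 at chr1:24613087-24613119, chr1:24616155-24616188 and chr1:24613912-24613971 (mm10).
mt-Nd3: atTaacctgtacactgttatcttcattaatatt
Gm28438: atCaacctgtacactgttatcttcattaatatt
mt-Co1: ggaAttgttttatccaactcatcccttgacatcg
Gm29216: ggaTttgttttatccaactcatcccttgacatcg
mt-Co3: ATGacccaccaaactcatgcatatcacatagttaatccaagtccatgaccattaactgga
Gm28437: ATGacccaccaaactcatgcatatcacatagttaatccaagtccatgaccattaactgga
A read of 150 bases that falls within an identical stretch matches both places equally well. No source used here says how reads that match more than 1 place were counted, and the part of the copy in the low counts was not tested. Counts of all genes inside the stretch are therefore uncertain, and so are those of mt-Co1 and mt-Nd4 as whole genes.

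Per length, the 5 protein genes outside the copied stretch (mt-Nd1, mt-Nd2, mt-Nd5, mt-Nd6 and mt-Cytb) had levels between 250.1 and 3769 CPM per kb over the 4 embryos. The 6 protein genes wholly inside it had levels between 0 and 59.9 CPM per kb. The ranges did not overlap in any embryo. mt-Nd1 had 164, 185, 152 and 263 times the level per kb of mt-Co3 in the 4 embryos, in the order above. mt-Co1 and mt-Nd4, partly inside, lay between 711 and 1524 CPM per kb. Divided by only the bases outside the copied stretch, mt-Nd4 came to 3484 and 1952 CPM per kb in WT and to 3209 and 2038 in KO, beside 3584.5 and 2627 in WT and 3769 and 2984 in KO for mt-Nd1. By the same division mt-Co1 came to 1803 and 1878 CPM per kb in WT and to 2217 and 2182 in KO, below mt-Nd1 in each embryo. That scaling treats mt-Nd4 and mt-Co1 as if no read inside the stretch had been counted on them. Some reads inside the stretch were counted, since mt-Co2 and mt-Co3, wholly within it, held 198 to 428 and 209 to 412 counts.

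**Figure D2:**
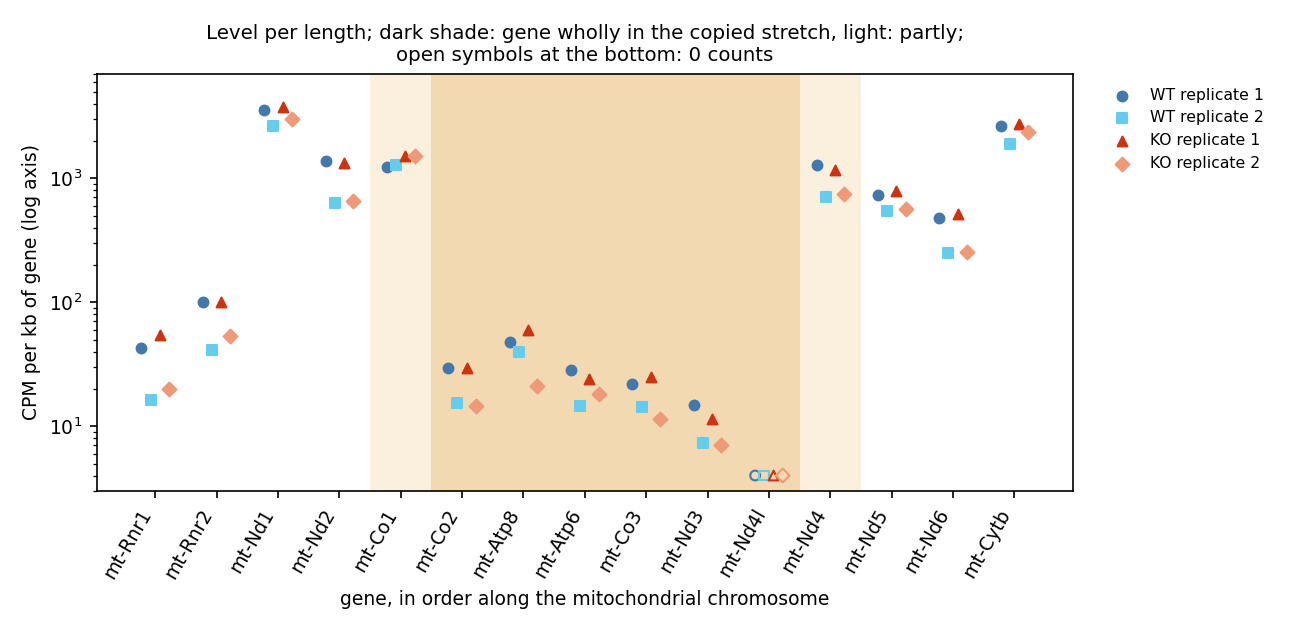
Points give CPM per kb of gene (log axis) for the protein and ribosomal RNA genes in chromosome order, 1 symbol per embryo. Genes wholly inside the stretch copied on chromosome 1 (dark shade) lie at or under 59.9 CPM per kb, and the protein genes outside it at or above 250.1.

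The counts on the nuclear copies were themselves small, between 0.476% and 0.827% of all counts on members and copies together. Gm28437, the copy of mt-Co3, held 862, 955, 1423 and 1362 counts, against 291, 209, 412 and 248 counts on mt-Co3. The copy thus held between 74.8% and 84.6% of the counts of this identical pair. For mt-Nd3 the copy Gm28438 held between 57.3% and 67.8% of the pair. For mt-Atp6 and its identical copy Gm10925 the order was the opposite, with 6.50% to 15.4% on the copy. Gm28661, the copy of mt-Co2, had 35, 13, 835 and 30 counts, and KO replicate 1 stood apart from the other 3 embryos. The copy held 66.1% of that pair in KO replicate 1 and 6.16% to 9.77% in the others. Its log2 fold change was 3.88 (SE 1.38), with an adjusted p of 0.528 by edgeR and 0.0132 by DESeq2. Without KO replicate 1 the log2 fold change was -0.27. Over its alternatives the adjusted p of Gm28661 ran from 0.000498 to 0.9998. Of the 4 other copies that match at 95% identity or more over at least 200 bases, on chromosomes 2 and 13, none had more than 4 counts in a library.

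**Figure D3:**
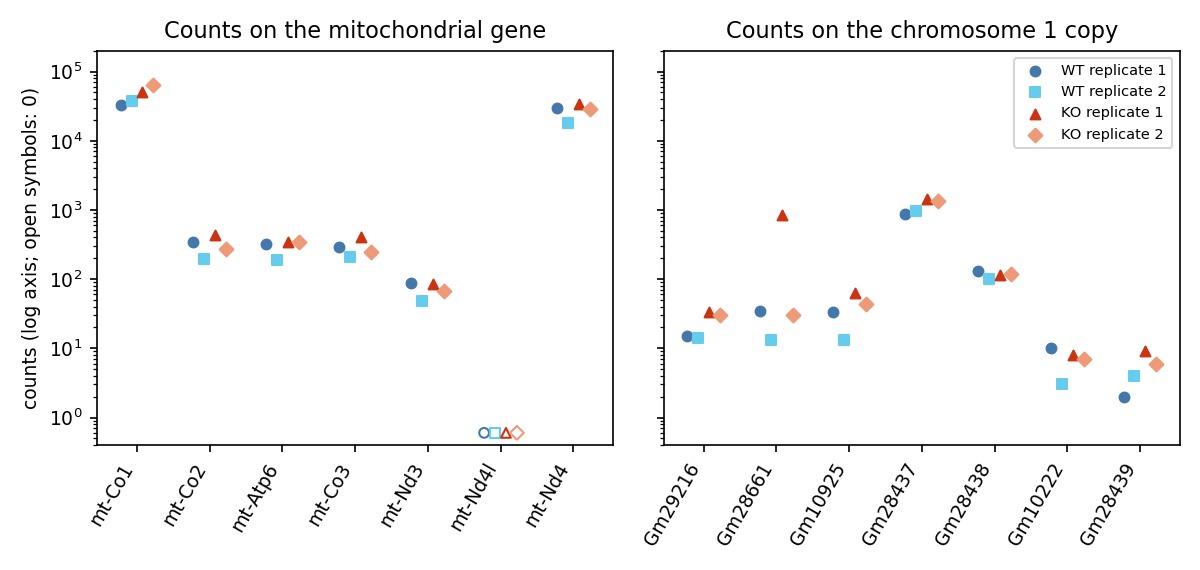
Counts (log axis) on 7 mitochondrial genes (left) and on their chromosome 1 copies in the same order (right), 1 symbol per embryo, with open symbols for 0. Gm28437 exceeds mt-Co3 in each embryo, and Gm28661 has 835 counts in KO replicate 1 and at most 35 in the others.

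KO was compared with WT by edgeR's quasi-likelihood test over 15563 genes, of which 15 were mitochondrial. No mitochondrial gene was called higher or lower at an adjusted p of 0.05, beside 0% of all genes tested called higher and 0% lower. DESeq2 called 0 of the 15 in either direction, beside 0.964% of all genes higher and 0.578% lower. At an unadjusted p under 0.05 there were 0 of 15 beside 7.82% of all genes. The median log2 fold change of the 15 was 0.08, and that of all genes tested was -0.03, with 9 of the 15 above 0 beside 47.7% of all genes. The smallest adjusted p among them was 0.877 by edgeR, and over 14 alternatives the adjusted p of the 15 ran from 0.0589 to 0.9999. The sign of the median rested on single embryos: it was 0.45 without WT replicate 1, -0.27 without WT replicate 2, -0.33 without KO replicate 1 and 0.40 without KO replicate 2.

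**Figure D4:**
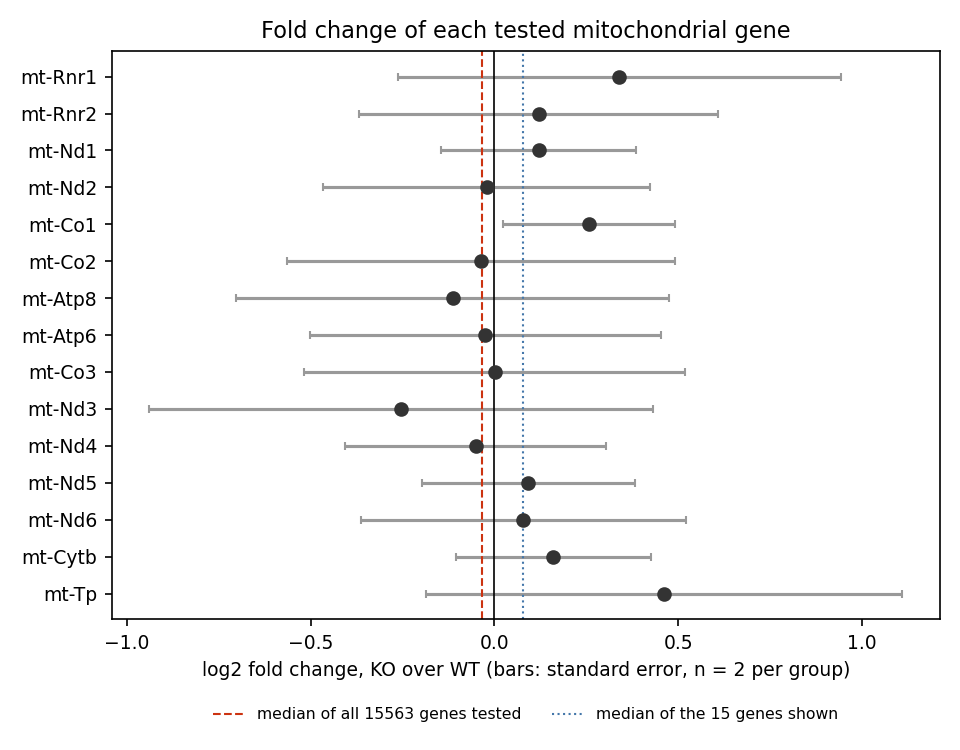
Points give the log2 fold change of KO over WT for the 15 mitochondrial genes tested, with bars for the standard error (n = 2 per group), and lines for 0 and for the medians of all genes and of the 15. The values lie between -0.25 and 0.46, and 1 of the 15 bars, that of mt-Co1, does not reach 0.

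Among the subunits of complex I, which passes electrons from NADH to ubiquinone, mt-Nd1 (chrM:2751-3707) had the highest level per kb of the mitochondrial genes in each embryo. That rank rests on the counts as given, which are uncertain for genes wholly or partly inside the copied stretch. mt-Nd1 had 3430.4 and 2514 CPM in WT and 3607 and 2856 CPM in KO. The embryos of each group differed more than the groups did, and the log2 fold change was 0.12 (SE 0.27). mt-Nd2 (chrM:3914-4951) had 1436 and 651 CPM in WT and 1372 and 685 CPM in KO, so that replicate 1 had about the same level in both groups (log2 fold change -0.02, SE 0.44). mt-Nd4 (chrM:10167-11544) had 1749 and 979.9 CPM in WT and 1611 and 1023 CPM in KO (-0.05, SE 0.35).

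mt-Nd5 (chrM:11742-13565), whose product sits at the far end of the membrane arm of complex I, had 1329 and 1002 CPM in WT and 1454 and 1030.5 CPM in KO. Its log2 fold change was 0.09 (SE 0.29), with overlapping groups. mt-Nd6 (chrM:13552-14070) is the protein gene that lies on the minus strand, where it overlaps the end of mt-Nd5 by 14 bases. It had 247 and 129.8 CPM in WT and 267 and 131 CPM in KO (0.08, SE 0.44). Per kb, mt-Nd1 stood at 7.52, 10.5, 7.32 and 11.8 times mt-Nd6. Smart-Seq does not mark the strand, so reads from the RNA opposite mt-Nd6 cannot be told from its own.

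The other complex I genes lie inside the copied stretch. mt-Nd3 (chrM:9459-9806) held 87 and 48 counts in WT (5.12 and 2.56 CPM) and 85 and 68 in KO (4.01 and 2.44 CPM). Its log2 fold change was -0.25 (SE 0.69). mt-Nd4l (chrM:9877-10173) had 0 counts in each of the 4 libraries, which allows at most 3 counts, or between 0.108 and 0.177 CPM per library, for counting error only. Its neighbour mt-Nd4, whose first 7 bases overlap it, held 18361 to 34168 counts.

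mt-Cytb (chrM:14145-15288), the cytochrome b of complex III, which hands electrons on to cytochrome c, had 3049.5 and 2147 CPM in WT and 3112 and 2696 CPM in KO. The KO values lay above and within the WT range, and the log2 fold change was 0.16 (SE 0.27).

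In complex IV, which passes electrons to oxygen, mt-Co1 (chrM:5328-6872) encodes the catalytic subunit. It had 1915 and 1995 CPM in WT and 2355 and 2317 CPM in KO. It was the single tested member in which both KO embryos lay above both WT embryos, beside 19.4% of all genes tested, and 0 of 15 lay below both beside 18.8%. The means were 1955 ± 56.7 CPM in WT and 2336 ± 26.5 CPM in KO (SD, n = 2). The log2 fold change of 0.26 (SE 0.23) had an edgeR adjusted p of 0.877, and over 14 alternatives the adjusted p ran from 0.116 to 0.9999 with the fold change between 0.24 and 0.63. mt-Co2 (chrM:7013-7696) held 345 and 198 counts (WT) against 428 and 277 (KO), or 20.3, 10.6, 20.2 and 9.93 CPM. mt-Co3 (chrM:8607-9390) had 291, 209, 412 and 248 counts, or 17.1, 11.2, 19.4 and 8.89 CPM. The log2 fold changes of mt-Co2 and mt-Co3 were -0.04 (SE 0.53) and 0.00 (SE 0.52), and that of mt-Co3 had the opposite sign under RLE scaling (-0.01).

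The ATP synthase genes mt-Atp8 (chrM:7766-7969) and mt-Atp6 (chrM:7927-8607) encode membrane subunits of the proton channel side of the enzyme and share 43 bases. The end of mt-Atp8 shows the overlap, with the shared bases in capitals (plus strand, chrM:7910-7969).
mt-Atp8: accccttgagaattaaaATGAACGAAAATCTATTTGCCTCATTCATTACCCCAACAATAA
The capitals begin with the start codon of mt-Atp6 and end with the stop codon of mt-Atp8. mt-Atp8 held 166 and 151 counts (WT) against 259 and 120 (KO), at a log2 fold change of -0.11 (SE 0.59), and mt-Atp6 had 326 and 187 in WT and 346 and 345 in KO (-0.02, SE 0.48). The KO embryos thus lay on both sides of the WT embryos for mt-Atp8. In CPM mt-Atp6 had 19.2 and 9.98 in WT and 16.3 and 12.4 in KO, so that its groups overlapped as well.

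Of the 13 protein genes, mt-Co3, mt-Nd4 and mt-Cytb have annotated lengths that leave 1 base beyond a multiple of 3. They end in a lone T (capital), which the poly(A) tail is known to complete to a stop codon. They lie on the plus strand, at chrM:9361-9390, chrM:11515-11544 and chrM:15259-15288, and are shown because their stop codons depend on the tail on which these libraries were primed.
mt-Co3 end: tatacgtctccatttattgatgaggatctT
mt-Nd4 end: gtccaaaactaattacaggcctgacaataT
mt-Cytb end: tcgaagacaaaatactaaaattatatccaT
Among these 3, mt-Nd4 and mt-Cytb had at least 18361 counts per library and mt-Co3 at most 412.

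The ribosomal RNAs lie at the start of the main precursor and form the 2 subunits of the mitochondrial ribosome. mt-Rnr2 (chrM:1094-2675), of the large subunit, had 159.0 and 65.6 CPM in WT and 159.3 and 84.9 CPM in KO. mt-Rnr1 (chrM:70-1024), of the small subunit, had 40.7 and 15.5 CPM in WT and 52.2 and 19.0 CPM in KO. The replicate 1 embryos were the higher ones for both RNAs, and the groups overlapped. The log2 fold changes were 0.12 (SE 0.49) and 0.34 (SE 0.60). Per kb, mt-Rnr2 stood at 1.84 to 2.69 times mt-Rnr1, and both lay below every protein gene outside the copied stretch, at most at 101 CPM per kb. These libraries were primed on poly(A). No copy of the ribosomal RNA genes met the limits of 95% identity over 200 bases among annotated transcripts, the only sequences searched. The part of priming or of nuclear copies in the low level of these RNAs was not tested.

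Of the 22 transfer RNA genes, which carry amino acids to the mitochondrial ribosome, 21 had 0 counts in every library. The exception was mt-Tp, for proline, with 66 and 44 counts (WT) against 110 and 95 (KO), or 3.89, 2.35, 5.19 and 3.40 CPM. The KO range began inside the WT range, and the log2 fold change was 0.46 (SE 0.65, edgeR adjusted p = 0.935). mt-Tp lies on the minus strand (chrM:15356-15422) and is the last gene before the control region. mt-Tt, for threonine, lies next to it on the plus strand (chrM:15289-15355), directly after mt-Cytb, and is shown as the neighbour of the same length that stood at 0.
mt-Tp: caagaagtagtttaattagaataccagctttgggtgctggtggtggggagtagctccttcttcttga
mt-Tt: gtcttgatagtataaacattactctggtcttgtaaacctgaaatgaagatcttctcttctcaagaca
Each is 67 bases long, shorter than 1 read of 150 bases. A read that spans mt-Tt also covers a neighbouring gene. mt-Tp borders the control region, so a read can span it without covering another gene. No source used here says how reads over more than 1 gene were assigned, and the part of position in these counts was not tested.

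The embryos of each group differed from each other in the same direction for nearly all mitochondrial genes. Replicate 1 had the higher CPM for 14 of the 15 genes in WT and for 15 of 15 in KO, and in both groups for 14, beside 33.1% of the 14589 tested genes that had counts in every library. The median log2 ratio of replicate 1 to replicate 2 was 0.84 in WT and 0.72 in KO, and 0.00 and 0.04 over those 14589 genes. mt-Rnr1 had ratios of 2.63 in WT and 2.74 in KO, and mt-Nd2 2.20 and 2.00. mt-Cytb had 1.42 and 1.15, and mt-Co1 0.960 and 1.02. Across the 15 genes the log2 ratios of the 2 groups correlated at 0.491 (Pearson) and 0.386 (Spearman). Over the 14589 genes the values were 0.285 and 0.327. These are a description only, since the points share 4 libraries. Nothing in the labels ties equal replicate numbers to a litter or a day.

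**Figure D5:**
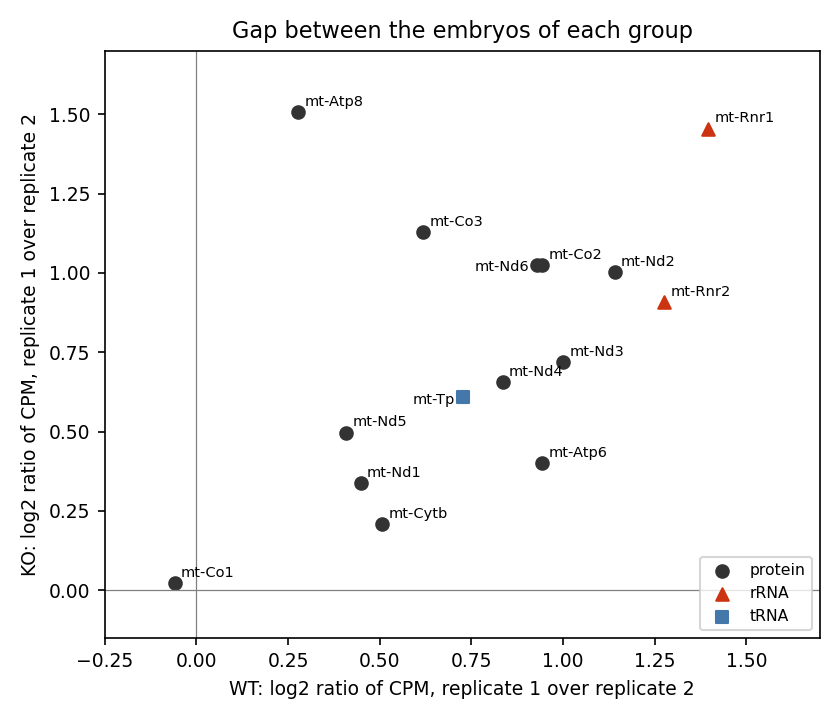
Each point is 1 of 15 mitochondrial genes, with the log2 ratio of CPM of replicate 1 to replicate 2 in WT (x axis) and in KO (y axis). All but mt-Co1 lie above 0 on both axes, and mt-Rnr1 lies farthest from the origin at ratios of 2.63 and 2.74.

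The nuclear genes of the same complexes were taken from fixed lists, 83 genes in all, of which 82 were tested. By edgeR 0 of the 82 passed in either direction, beside 0% of all genes tested. The log2 fold change was above 0 for 32 of the 82, beside 47.7% of all genes tested. In 8 of the 82 both KO embryos lay above both WT embryos, beside 19.4% of all genes tested, and in 15 below, beside 18.8%. Their summed share of the library was 2.10% and 2.22% in WT and 2.13% and 2.07% in KO, a narrower range than that of the mitochondrial genes. Counts on mitochondrial genes per count on these nuclear genes came to 0.675 and 0.401 in WT and to 0.693 and 0.512 in KO, so that the ratio too was higher in replicate 1 of each group.

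Medians of the nuclear lists were -0.08 for complex I (36 tested), -0.13 for complex II (4), -0.07 for complex III (9), 0.04 for complex IV (15) and -0.10 for ATP synthase (18). In complex I, Ndufb10 differed by -0.43 on the log2 scale (SE 0.31), Ndufb4 by -0.44 (SE 0.34) and the low Ndufb2 by -1.06 (SE 0.78). Sdha, the flavoprotein of complex II, had 177 and 204 CPM in WT and 152 and 99.8 CPM in KO (-0.60, SE 0.33), and its partners Sdhb and Sdhc differed by -0.31 (SE 0.28) and 0.07 (SE 0.38). In complex III the iron-sulfur subunit gene Uqcrfs1 differed by 0.33 (SE 0.29), Uqcr10 by 0.28 (SE 0.30) and the cytochrome c1 gene Cyc1 by -0.33 (SE 0.34). In complex IV, Cox8a differed by 0.33 (SE 0.27), and the low isoform genes Cox4i2 and Cox7a1 by 1.48 (SE 1.19) and -0.93 (SE 0.91). The ATP synthase genes Atp5f1, Atp5a1 (the alpha subunit) and Atp5c1 (the gamma subunit) differed by -0.52 (SE 0.26), -0.40 (SE 0.32) and -0.27 (SE 0.30). None of these passed by DESeq2 either.

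Nuclear genes that maintain and transcribe mitochondrial DNA had a median of -0.09 over 17 tested genes. None passed the edgeR threshold, beside 0% of all genes tested. Both KO embryos lay above both WT embryos for 4 of the 17, beside 19.4% of all genes tested, and below for 4, beside 18.8%. Mterf4, which with a methyltransferase serves assembly of the mitochondrial ribosome, had 45.0 and 57.5 CPM in WT and 123 and 147 CPM in KO. Both KO embryos lay well above both WT embryos, at a log2 fold change of 1.39 (SE 0.34), an adjusted p of 0.362 by edgeR and 0.0166 by DESeq2 (0.0122 to 0.806 over the alternatives). Twnk, the helicase of mitochondrial DNA, had 43.8 and 38.1 CPM in WT and 22.3 and 18.4 CPM in KO (-1.01, SE 0.37, edgeR adjusted p = 0.545), and the primase gene Primpol differed by -1.41 (SE 0.53).

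Genes that process, stabilise and modify mitochondrial RNA had a median of 0.13 over 42 tested genes. Of these, 0 passed the edgeR threshold, beside 0% of all genes tested. Both KO embryos lay above both WT embryos for 14 of the 42, beside 19.4% of all genes tested, and below for 2, beside 18.8%. Mrm3, a methyltransferase of the large ribosomal RNA, had 44.5 and 41.7 CPM in WT and 98.9 and 132 CPM in KO. Its log2 fold change was 1.42 (SE 0.34), with an adjusted p of 0.362 by edgeR and 0.0159 by DESeq2 (0.0159 to 0.578 over the alternatives). Mrm2, another methyltransferase of that RNA, differed by 1.05 (SE 0.49) and Trmt5, a transfer RNA methyltransferase, by 0.77 (SE 0.34). The RNA that Mrm2 and Mrm3 modify, mt-Rnr2, had the values given above, with a log2 fold change of 0.12. Among regulators of mitochondrial biogenesis (9 tested, median -0.07) Myc had 86.6 and 137 CPM in WT and 336 and 232 CPM in KO. Its log2 fold change was 1.34 (SE 0.36), with an adjusted p of 0.391 by edgeR and 0.0383 by DESeq2 (0.0293 to 0.960 over the alternatives). The coactivator gene Ppargc1b differed by 1.11 (SE 0.64) at no more than 5.38 CPM, and Gabpb2 by -0.38 (SE 0.39).

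The mitochondrial genes are poor in G and C, between 31.9% and 44.8% for the 15 tested, where the median of all tested genes with a value was 49.5%. With the trend of each library on GC content and transcript length removed, the median of the 15 was 0.74 and all 15 fold changes were above 0, while the median of all genes was 0.00. None of the 15 passed in that fit (smallest edgeR adjusted p = 0.427), nor with the replicate number as a block in addition (median 0.68, smallest adjusted p = 0.0589, for mt-Nd6). The size of the difference between the groups therefore depended on this correction, which moved it by more than the SD of 0.507 between embryos of a group in the mean log2(CPM + 1) of the 15 genes.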

How the data were processed

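The authors deposited unnormalised whole-number read counts per gene for 4 single-embryo libraries. The submitters' processing notes name mm10, Cufflinks and TopHat, with no role or version. Smart-Seq v4 amplification and paired reads of 150 bases are given per the labels' protocols. No source used here names the counting program, the annotation, the strand setting or the handling of reads with several matches. Of 47885 rows, 46574 matched an identifier of GENCODE M21 and 1311 did not.

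Counts were fitted over the whole table with edgeR 4.0.16 (R 4.3.3): genes kept by filterByExpr at a minimum count of 10 and a total of at least 15, TMM scaling, a robust fit, the quasi-likelihood F test and Benjamini-Hochberg adjustment over 15563 genes. Standard errors were taken as |log2 fold change| / sqrt(F). DESeq2 1.42.0, limma-voom 3.58.1, other scalings and filters, left-out libraries, the replicate block and GC and length offsets (splines with 4 degrees of freedom) were alternatives. Of the 15563 genes 15047 had a GC and length value, and so had each of the 37 mitochondrial genes, tested or not. Nuclear copies were found with blastn 2.17.0 against GENCODE M21 transcripts (at least 95% identity over at least 200 bases), from which all sequences were read. No genome sequence was used. The fit was tested on simulated data with known changes. It missed most of those with a log2 size of 1 or 2 and some of the larger ones. A gene that was not called is therefore not shown to be unchanged.

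Genes named were all 37 mitochondrial genes, up to 3 genes with the smallest p from each of 8 pathway lists, the nuclear copies and Mettl14. The members and lists were chosen with earlier results of these data known. Each library is a different embryo, and all p-values rest on these 4. Those of the fits set the group difference against a within-group spread that is estimated partly from all genes tested. The permutation p ranks the difference among the possible splits of the embryos. Counts came from amplified cDNA without molecular identifiers, so floors cover counting error only.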

Additional observations from a re-analysis of the deposited data

How the results depend on the processing

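The 0 calls among mitochondrial genes in the 14 alternatives say nothing about stability, since the main edgeR fit called 0 of all genes tested. Some alternatives did call other genes, as given below. Removing the GC and length trend moved the median of the 15 genes from 0.08 to 0.74 on the log2 scale, and it turned mt-Nd2 (0.69), mt-Co2 (0.51), mt-Atp8 (1.25), mt-Atp6 (0.92), mt-Nd3 (1.25), mt-Nd4 (0.66), Atp5f1 (0.088) and Gm28438 (1.02) above 0. With the replicate block in addition the median was 0.68 and these 8 were 0.67, 0.51, 1.21, 0.77, 0.96, 0.61, 0.012 and 0.71. The replicate block alone gave a median of 0.06 and turned mt-Nd2 (0.0038), mt-Atp6 (0.036) and mt-Co3 (-0.071). It changed no call of a mitochondrial gene, while over all genes it called 52 higher and 19 lower. The labels do not say what equal replicate numbers share, and whether they mark a batch or litter was not tested. The replicate differences of the 2 groups correlated at 0.371 across genes. mt-Co3, at 0.00, was -0.014 by DESeq2 and with RLE scaling, -0.012 with at least 50 counts in 2 libraries, -7.4e-05 when scaled on nuclear genes and -0.10 by limma-voom, which gave mt-Atp6 0.036. Leaving out 1 embryo at a time turned the mitochondrial share (-0.150 to 0.377 percentage points), the ribosomal RNA share (-0.258 to 0.379), and the log2 fold changes of mt-Nd1 (-0.076 to 0.37), mt-Nd2 (-0.52 to 0.66), mt-Nd3 (-0.66 to 0.33), mt-Nd4 (-0.40 to 0.43), mt-Nd5 (-0.10 to 0.33), mt-Nd6 (-0.44 to 0.61), mt-Cytb (-0.061 to 0.45), mt-Co2 (-0.55 to 0.51), mt-Co3 (-0.59 to 0.47), mt-Atp8 (-0.97 to 0.46), mt-Atp6 (-0.41 to 0.53), mt-Rnr1 (-0.48 to 1.19), mt-Rnr2 (-0.37 to 0.89), Sdhc (-0.43 to 0.52), Cyc1 (-0.69 to 0.047), Atp5c1 (-0.50 to 0.045) and Gm28661 (-0.27 to 4.85). The median ranged from -0.33 to 0.45 in these fits, where the lone embryo of a group is assumed to vary like the other group. mt-Co1 stayed between 0.24 and 0.33 there. Over all genes, DESeq2 called 150 higher and 90 lower, and without the low-count filter edgeR called 157 and 101. The block with the trend removed called 173 and 85, where the main edgeR fit called 0. A median over the 8 genes outside the copied stretch, chosen after seeing the data, was 0.12. The causes were not tested. At most 428 counts per library on genes inside the copied stretch limit their precision.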
